A study of Mus musculus with 71 samples.

Results

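The 10 Hoxb genes of the mouse, Hoxb1 to Hoxb9 and Hoxb13, were taken by symbol from count tables of 24222 genes, and all 10 had a row. RNA was read in 9 libraries of C57BL/6 embryonic stem (ES) cells, 3 in each of 3 groups. The wild-type group (WT) carries both Ezh1 and Ezh2, the double knockout (dKO) is labelled as lacking both, and the rescue is labelled as re-expressing wild-type EZH2. Every group was grown on gelatin in 2i, a medium that keeps ES cells in the naive state. Whether a line is 1 clone, and whether replicates are separate cultures, is not given in the labels, so the p-values speak for the spread among these libraries, which may be technical. The 7480 Suz12 peaks deposited for wild-type 129B6F1 cells, another strain, were set beside the RNA.

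Hox genes encode homeodomain transcription factors that give cells their position along the body axis. They lie in clusters, and the order of genes on the chromosome matches the order in which they are used, from Hoxb1 in the hindbrain to Hoxb13 at the tail end. In ES cells the clusters are textbook targets of Polycomb repressive complex 2 (PRC2), whose subunit EZH1 or EZH2 methylates H3K27, and of which SUZ12 is the scaffold.

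The labels were read first on the targeted genes. Levels are given as CPM, the counts of a gene scaled to a common library size, with TMM factors that correct for differences in library composition. Ezh1 was at 47.9 to 53.3 CPM in WT, at 1.80 to 2.33 in dKO and at 2.33 to 3.41 in rescue, so the rescue libraries remained low in Ezh1. Ezh2 was at 308 to 313, 191 to 214 and 549 to 576 CPM. A count per gene does not show the loss of single exons, and the Ezh2 rows could not check the labels fully. Libraries held 12457622 to 36009529 counts. Replicates differed by more than sampling noise, with a chi-square per degree of freedom over genes of 2.15 to 22.6, the 2 highest values being those of dKO replicate 3. Of the markers of naive ES cells, all 10 of 10 were tested and their summed level was 6394 to 6541 CPM in WT, 5550 to 5753 in dKO and 7402 to 7524 in rescue. By the edgeR test described below, 1 was higher and 7 lower in dKO than in WT, beside 33.7% and 31.0% of all tested genes. In rescue 7 were higher and 2 lower than in WT, beside 26.8% and 27.3%. The 2 lower, named after their values were seen, were Sox2 (means of 732 CPM in WT and 465 in rescue) and Dppa3 (77.4 and 28.8).

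The cluster spans 174 kb of chromosome 11, from Hoxb13 at 96194316 to Hoxb1 at 96368254 on GRCm38.p6, the assembly behind mm10. Hoxb9 to Hoxb1 fill 96.9 kb of it, and 74.7 kb separate them from Hoxb13. In WT 129B6F1 cells 12 Suz12 peaks covered 54.0% of the stretch from Hoxb9 to Hoxb1, against 1 peak and 1.93% of the stretch between Hoxb13 and Hoxb9. The widest peak of the whole list, 16.1 kb from 96289430 to 96305492, contained all of Hoxb6 and most of Hoxb5 (75.9%) and reached into Hoxb7. The next widest in the cluster were 6.87 kb inside Hoxb3 and 6.53 kb over Hoxb8 and Hoxb7, at ranks 63 and 74 of the list. Peaks covered Hoxb4 along 87.7% of the gene, Hoxb8 along 84.5%, Hoxb2 along 77.4%, Hoxb1 along 68.1% and Hoxb9 along 37.6%. Hoxb13 was the exception. Its gene, 96194316 to 96196610, held no peak, and the nearest lay 6.76 kb away. In all, 9 of 10 members had a peak within 1 kb, where 25.6% of 21887 protein-coding genes did. The peak list has no replicate and no score, so peak width is the measure of it that could be used.

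**Figure D1:**
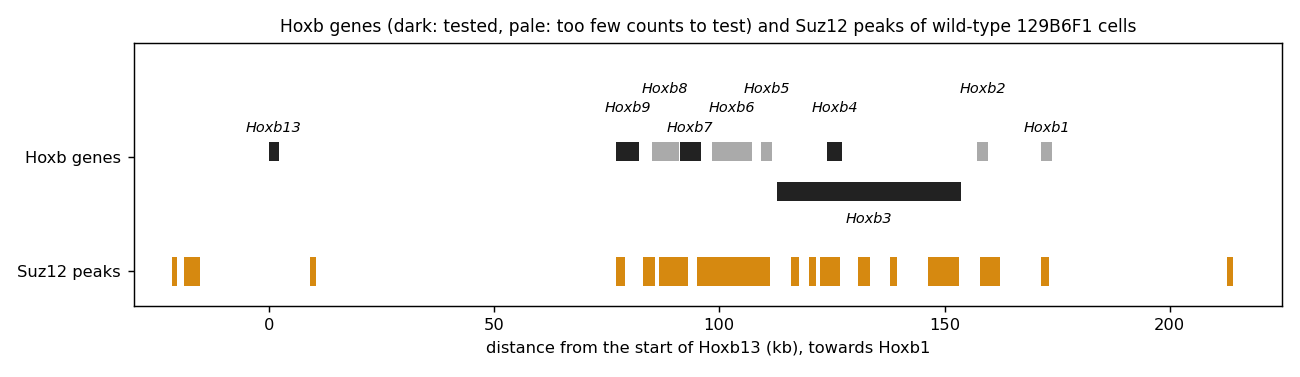
Positions of the 10 Hoxb genes (upper bars, dark where the RNA could be tested) and of the Suz12 peaks of wild-type 129B6F1 cells (lower bars) against distance from the start of Hoxb13 in kb. The peaks crowd over Hoxb9 to Hoxb1, the widest of them over Hoxb6 and Hoxb5, and Hoxb13 stands apart with no peak on it.

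RefSeq promoter sequences of GRCm38.p6 were at hand for 3 of the 10 members, and each of these gene starts lay inside a Suz12 peak. The Hoxb8 start used here, 96281905, is not the start of its annotated span, 96279401, so its window lies within that span. For Hoxb1 the starts are 96365758 here and 96365746 for the span. The 250 bases before the start are printed because they are the DNA at which PRC2 occupancy and RNA can be read together. Capitals mark every match, on either strand, to 4 motifs: TGATNNAT, bound by Hox proteins with Pbx, TTTATG, bound by Cdx factors, and AGGTCA and GGGTCA, the sites of retinoic acid receptors. They read 5′ to 3′ on the plus strand.
Hoxb1 (chr11:96365508-96365757): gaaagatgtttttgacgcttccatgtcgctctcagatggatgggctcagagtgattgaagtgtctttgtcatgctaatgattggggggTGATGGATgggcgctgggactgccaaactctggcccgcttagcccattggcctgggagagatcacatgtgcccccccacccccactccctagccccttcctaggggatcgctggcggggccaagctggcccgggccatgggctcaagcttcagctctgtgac
Hoxb4 (chr11:96318017-96318266): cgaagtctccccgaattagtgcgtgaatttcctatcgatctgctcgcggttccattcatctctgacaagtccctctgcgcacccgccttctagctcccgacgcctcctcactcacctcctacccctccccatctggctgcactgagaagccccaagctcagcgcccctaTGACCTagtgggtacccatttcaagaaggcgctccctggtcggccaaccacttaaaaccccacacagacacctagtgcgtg
Hoxb8 (chr11:96281655-96281904): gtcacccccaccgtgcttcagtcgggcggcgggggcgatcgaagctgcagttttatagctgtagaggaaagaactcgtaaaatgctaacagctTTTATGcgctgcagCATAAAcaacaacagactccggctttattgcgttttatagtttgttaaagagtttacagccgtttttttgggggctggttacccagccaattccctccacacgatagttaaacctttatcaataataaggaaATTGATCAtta
The Hoxb1 window held 1 TGATNNAT match, 162 to 155 bases before the start, a motif present in 7.68% of 32851 promoter windows of that length. The Hoxb8 window held TTTATG on both strands, from -157 to -152 and from -143 to -138, where 10.8% of windows held the motif, and a TGATNNAT match from -11 to -4. The Hoxb4 window held AGGTCA on the minus strand from -81 to -76, a motif of 14.02% of windows. None of the 3 windows held GGGTCA, found in 11.6% of windows. Matches did not overlap each other. CpG dinucleotides numbered 7 in Hoxb1, 14 in Hoxb4 and 12 in Hoxb8, against a median of 6 over all windows. The Suz12 peak began 84 bases before the Hoxb1 start, 1573 before that of Hoxb4 and 976 before that of Hoxb8, so the Hoxb1 motif lay just outside the peak and the others inside. A match describes these letters and is not a binding site measured here.

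The genes fall into 3 kinds by the number of reads they gave. Hoxb4, Hoxb9 and Hoxb13 passed the filter on low counts in every group, since all their libraries were at or above its level of 0.450 CPM. Hoxb7 reached that level in 2 of 3 WT, 3 of 3 dKO and 2 of 3 rescue libraries, and Hoxb3 in the 3 dKO libraries alone. A gene that passes through the group in which it is high had to differ, so the calls for Hoxb3 do not stand as independent evidence. Hoxb1, Hoxb2, Hoxb5, Hoxb6 and Hoxb8 did not pass and are described by their counts. CPM was not divided by transcript length, which the files do not give, so levels are compared between libraries and not between genes.

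Comparing dKO with WT asks what happened to the cluster in cells labelled as lacking both methyltransferases. The 5 tested members all rose in dKO, and 33.7% of all 14145 tested genes rose and 31.0% fell. Hoxb3, at 13.4-fold, passed the filter through dKO alone, so its rise adds no support. The other tested members rose by 2.28-fold for Hoxb13 to 4.09-fold for Hoxb7. In 7 of all 10 members the 3 dKO libraries lay above the 3 WT libraries, and in 0 below, where 34.8% and 33.2% of the tested genes did so. The 7 include Hoxb3 and the untested Hoxb2 and Hoxb8, so they and the tested genes are unlike sets. Called, and "rose" or "fell", mean a two-sided edgeR quasi-likelihood test with a Benjamini-Hochberg adjusted p under 0.05 over those genes. The members' median log2 fold change, Hoxb3 included, was 1.92, beside -0.00261 over all tested genes. Scaled by total counts alone, which moved the median of all genes to 0.13, the 5 members rose as well, while the share of higher genes among all called went from 52.1% to 66.1%.

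Hoxb13, a gene of the tail and the prostate, was at 8.47, 8.39 and 10.0 CPM in WT and at 21.8, 22.0 and 17.6 CPM in dKO. All 3 dKO libraries lay above all WT libraries, and the change was the smallest of the 5 on the log2 scale (1.19 ± 0.12, SE, edgeR Benjamini-Hochberg adjusted p = 3.7e-06). It is the member with no Suz12 peak on it.

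Hoxb9, used in the thoracic region, was at 2.13, 1.91 and 1.39 CPM in WT and at 4.29, 7.63 and 8.02 CPM in dKO. The dKO libraries spread widely, yet the lowest of them stood above each WT library. The log2 fold change was 1.92 ± 0.24 (SE, edgeR Benjamini-Hochberg adjusted p = 1.85e-05).

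Hoxb7, which lies beyond Hoxb8 on the way from Hoxb9 to Hoxb1, was at 0.551, 0.419 and 0.722 CPM in WT and at 2.86, 2.13 and 2.08 CPM in dKO, a log2 fold change of 2.03 ± 0.30 (SE, edgeR Benjamini-Hochberg adjusted p = 8.22e-05). Hoxb4, known for expanding blood stem cells when overproduced, was at 1.31, 1.68 and 2.22 CPM in WT and at 6.93, 4.65 and 3.59 CPM in dKO. Its log2 fold change was 1.48 ± 0.26 (SE, edgeR Benjamini-Hochberg adjusted p = 0.00031). For both genes the groups did not overlap, and dKO replicate 1 was the highest dKO library, whereas for Hoxb9 it was the lowest.

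Hoxb3, whose long annotated span from 96307101 to 96347930 contains Hoxb4, had 1, 0 and 2 counts in WT and 8, 19 and 23 in dKO. That is a count ratio of 14.9 with an exact 95% interval of 4.83 to 74.9, counting error only, after scaling by the effective library sizes. The fitted log2 fold change of Hoxb3, 3.75 ± 0.63 (SE), moved to 4.59 without WT replicate 3 and to 3.09 without WT replicate 2, and stayed called in both fits. Reads that fall in Hoxb4 also fall within the span of Hoxb3, and the counting rule for such reads is not given in the sources used here, so the Hoxb3 value is uncertain.

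The members under the filter showed a like contrast at far fewer reads. Hoxb8 had 0 counts in each WT library and 3, 6 and 12 in dKO, so that dKO was at least 6.28-fold higher, taking a limit of 3 counts for the WT group. Hoxb2, a hindbrain gene, had 0, 0 and 2 counts in WT and 2, 8 and 12 in dKO, a ratio of 9.86 (exact 95% interval 2.42 to 86.5). For Hoxb2 the highest WT library, at 0.103 CPM, lay just below the lowest dKO library, at 0.151 CPM. Fitted by edgeR with no filter on counts, over 18729 genes, both rose, with Benjamini-Hochberg adjusted p = 0.000642 for Hoxb8 and 0.0085 for Hoxb2.

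The remaining 3 members gave almost no reads in any group. Hoxb1, the gene of the fourth hindbrain segment, had 1 count over the WT libraries, 4 over dKO and 2 over rescue. Its dKO to WT ratio of 3.59 had an exact 95% interval of 0.355 to 177 and was not resolved at this depth. Hoxb6 had 0 counts in WT and in rescue and 2 in dKO, all in replicate 3. Hoxb5 had 0 counts in all 9 libraries, and with the same limit its level could be up to 0.0542 CPM in WT, 0.0486 CPM in dKO or 0.0377 CPM in rescue. These 2 genes lie under the widest Suz12 peak of the list. They also lie inside Hoxb5os, a non-coding gene annotated from 96291037 to 96306910 that has no row of its own in the counts. How the counting treated reads shared by overlapping genes was not tested.

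**Figure D2:**
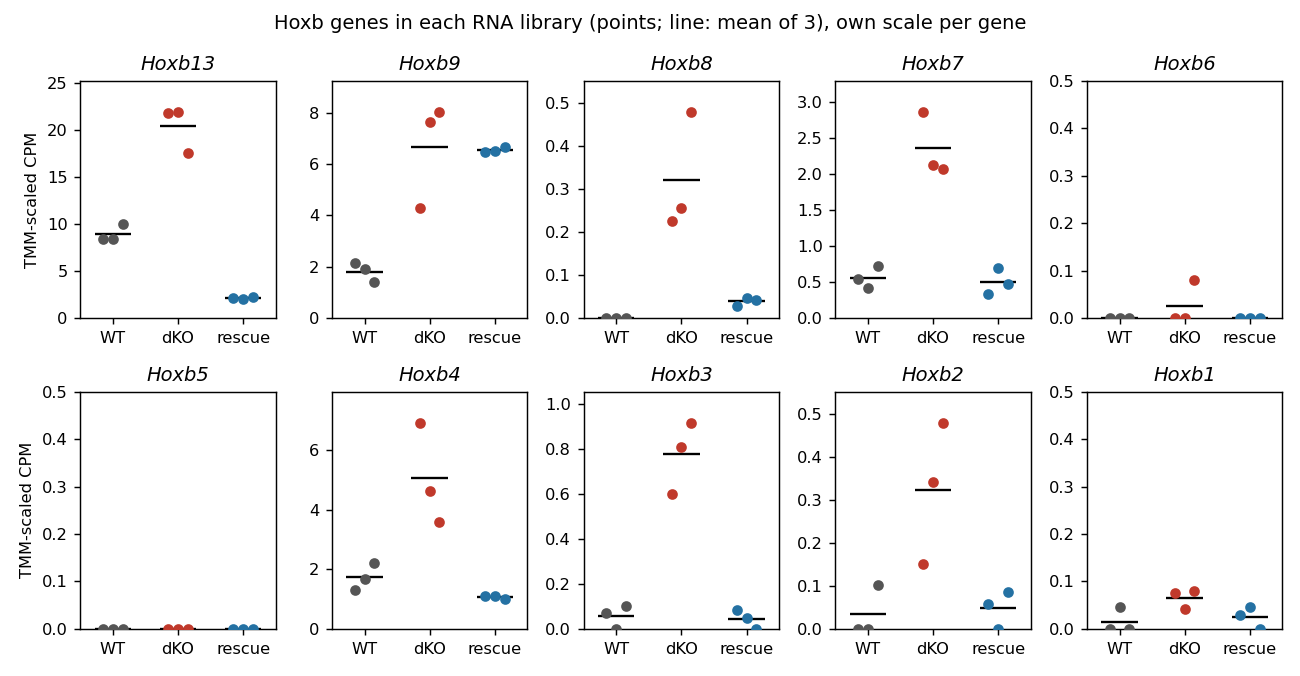
TMM-scaled CPM of each Hoxb gene (a panel each, own vertical axis from 0) in the 3 WT, 3 dKO and 3 rescue libraries, with a line at the group mean. Most genes peak in dKO, Hoxb9 stays high in rescue, Hoxb13 drops below WT in rescue, and Hoxb5 is at 0 in every library.

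Comparing rescue with dKO asks which of these levels were lower again in the cells labelled as re-expressing EZH2. Of the 5 tested members Hoxb3, Hoxb4, Hoxb7 and Hoxb13 fell and Hoxb9 did not pass, where 38.2% of all tested genes fell and 32.1% rose. In 6 of all 10 members every rescue library lay below every dKO library, and in 0 above, against 38.5% and 33.2% of the tested genes. The 6 include Hoxb2 and Hoxb8, which were not tested. The members' median log2 fold change was -2.24, beside -0.04 over all tested genes. Both the count and the median include Hoxb3, which passed the filter through dKO alone. This comparison shares its dKO libraries with the one above, so its values stand beside those and are not a separate sign of the same change. Scaling by total counts alone moved the median of all genes to -0.18 and the share of higher genes among all called from 45.6% to 34.4%, and the same 4 members fell.

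Hoxb13 went to 2.17, 2.01 and 2.29 CPM in rescue, 9.43-fold below dKO (log2 fold change -3.24 ± 0.14, SE, edgeR Benjamini-Hochberg adjusted p = 2.87e-09). Hoxb4 went to 1.11, 1.12 and 0.994 CPM and fell by 2.18 ± 0.26 (SE) on the log2 scale, with edgeR Benjamini-Hochberg adjusted p = 1.34e-05. Hoxb7 went to 0.343, 0.700 and 0.475 CPM and fell by 2.24 ± 0.29 (SE), with edgeR Benjamini-Hochberg adjusted p = 2.16e-05. In each of these genes every rescue library lay below every dKO library.

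At the low end the counts went the same way. Hoxb3 had 3, 1 and 0 counts in rescue, 16.1-fold below dKO (exact 95% interval 5.91 to 61.4), and its fitted log2 fold change of -3.86 moved to -4.81 without rescue replicate 1. Hoxb8 had 1 count in each rescue library, 9.01-fold below dKO (2.69 to 47.2). Hoxb2 had 2, 0 and 2, which is 7.08-fold below (2.41 to 28.3).

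Hoxb9 was the exception. It stood at 6.46, 6.49 and 6.66 CPM in rescue, inside the dKO range of 4.29 to 8.02, and the log2 difference from dKO was -0.06 ± 0.19 (SE, edgeR Benjamini-Hochberg adjusted p = 0.793). The rescue libraries were tight and the dKO libraries wide, so a difference within that spread is not detectable here.

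**Figure D3:**
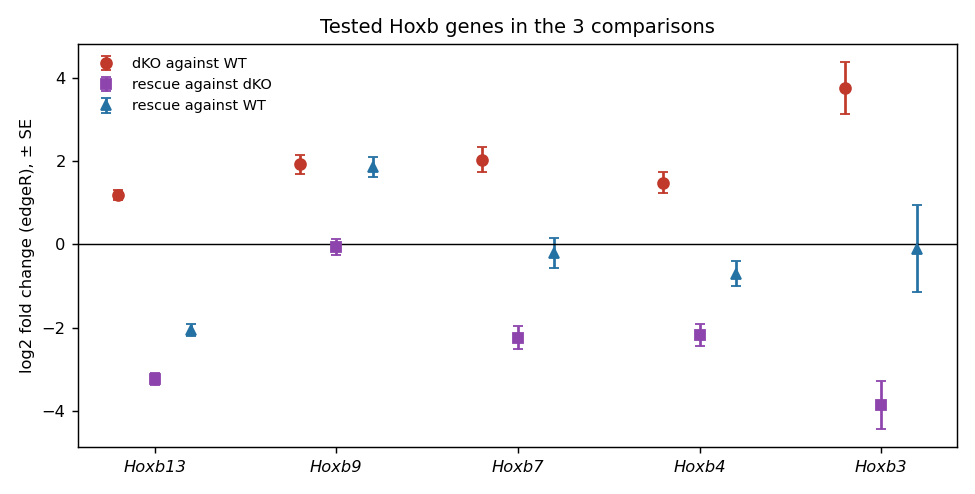
Log2 fold change (edgeR) of the 5 tested Hoxb genes in the 3 comparisons, with bars of ± 1 SE. Hoxb9 is near 0 in rescue against dKO and near 2 in both comparisons with WT, whereas Hoxb13 is below 0 in rescue against WT.

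Comparing rescue with WT asks how near the rescue libraries came to wild type. Of the tested members, Hoxb9 was higher in rescue and Hoxb13 lower, while Hoxb3, Hoxb4 and Hoxb7 did not pass, against 26.8% of all tested genes higher and 27.3% lower. Groups did not overlap in 4 of all 10 members, Hoxb8 and Hoxb9 higher and Hoxb4 and Hoxb13 lower, against 32.8% of tested genes higher and 32.5% lower. Hoxb8 was not tested and gave 1 count in each rescue library and 0 in each WT library. Hoxb9 rose by 1.86 ± 0.23 on the log2 scale (SE, 3.63-fold, edgeR Benjamini-Hochberg adjusted p = 4.62e-05). Hoxb13 fell by 2.05 ± 0.14 (SE, 4.14-fold lower than WT, edgeR Benjamini-Hochberg adjusted p = 5.5e-07). For both genes the 3 rescue libraries lay clear of the 3 WT libraries.

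Within a library the count of Hoxb9 per count of Hoxb13 does not depend on depth or scaling. The WT libraries gave 0.252, 0.228 and 0.139, the dKO libraries 0.197, 0.348 and 0.456, and the rescue libraries 2.97, 3.23 and 2.91. This ratio was chosen after the values were seen and carries no test. It sets the rescue libraries apart from all others, while WT and dKO overlap.

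Hoxb4 was lower in rescue than in every WT library, by 0.70 ± 0.30 on the log2 scale (SE), but missed the threshold with edgeR Benjamini-Hochberg adjusted p = 0.0653. It passed without WT replicate 1 (log2 fold change -0.84, adjusted p = 0.0488), without dKO replicate 1 (adjusted p = 0.0279) or 3 (adjusted p = 0.0238), and when only WT and rescue entered the fit (adjusted p = 0.0152). In 13 of 17 alternative fits Hoxb4 did not pass, with log2 fold changes down to -0.49 in size and edgeR adjusted p up to 0.258. A dKO library enters this comparison only through the shared fit. Hoxb7 was 0.21 lower ± 0.36 (SE, adjusted p = 0.654). Hoxb3 was 0.11 lower ± 1.04 (SE, adjusted p = 0.941), both by edgeR with Benjamini-Hochberg adjustment and with overlapping libraries, and for Hoxb3 the 4 rescue counts against 3 WT counts left an exact 95% interval of the ratio from 0.157 to 6.34. Hoxb8 had 3 counts in rescue and 0 in WT, at or below the limit of counting.

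By group, then, the order of levels was dKO above WT above rescue for Hoxb13, with every step called. For Hoxb4 it was dKO above WT and rescue, which did not differ by the test. For Hoxb7 and Hoxb3 dKO stood above WT and rescue, which overlapped. For Hoxb9 it was dKO and rescue, which overlapped, above WT.

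Other rows inside the cluster did not follow the Hoxb genes. Gm53, a non-coding gene at 96251660 to 96264484 between Hoxb13 and Hoxb9, stood at 11.01, 10.2 and 11.7 CPM in the WT libraries. The dKO libraries held 8.66, 8.06 and 8.46 CPM of it and the rescue libraries 9.26, 10.4 and 9.20 CPM. It fell in dKO by 0.39 ± 0.10 (log2, SE, edgeR Benjamini-Hochberg adjusted p = 0.00622). Gm11538, at 96203454 to 96205480 and overlapped by the lone Suz12 peak between Hoxb13 and Hoxb9, went from 0.895, 1.17 and 1.65 CPM in WT to 0.301, 0.256 and 0.399 in dKO. It remained at 0.371, 0.233 and 0.303 CPM in rescue, 1.99 ± 0.32 below WT (log2, SE, edgeR Benjamini-Hochberg adjusted p = 0.000312). Gm11538 and Hoxb13 were thus both below WT in rescue, and in dKO they lay on opposite sides of WT.

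The cluster also holds 2 microRNA hairpins with rows in the counts, and their mature 5p strands are shown with the seed, bases 2 to 8, in capitals.
miR-196a-5p (chr11:96265187-96265208): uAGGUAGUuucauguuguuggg
miR-10a-5p (chr11:96317186-96317208): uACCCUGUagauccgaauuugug
PolyA RNA libraries do not measure mature microRNAs, so these rows read longer transcripts across the hairpins. Mir196a-1 was at 1.58, 1.58 and 1.44 CPM in WT and 1.05, 0.810 and 0.838 in dKO, lower by 0.80 ± 0.21 (log2, SE, edgeR Benjamini-Hochberg adjusted p = 0.00586), and at 1.20, 1.31 and 1.296 in rescue. Mir10a, under the Suz12 peak of Hoxb4, had 0 counts in all 9 libraries.

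Outside the cluster, 13 of the 16 nearest genes with counts, 8 on each side, could be tested. In dKO against WT 7 of them fell, 2 rose and 4 missed the threshold, and their median was -0.28 (log2). Over all tested genes 31.0% fell and 33.7% rose. The most abundant of them fell. Nfe2l1, a stress-response factor, went from 516 ± 7.63 to 418 ± 16.03 CPM (SD, n = 3 libraries), Igf2bp1, an RNA-binding protein, from 489 ± 16.9 to 332 ± 65.7, Ube2z from 245 ± 4.75 to 201 ± 26.3 and the heterochromatin protein Cbx1 from 207 ± 22.0 to 114 ± 7.76. Within 2 Mb of the cluster the median over 92 tested genes was 0.09, and over the 1190 of chromosome 11 it was 0.08. In rescue against WT these medians were 0.14 and 0.07. Skap1, the first tested gene beyond Hoxb1, starting at 96464570, was singled out after its values were seen. Its WT libraries gave 0, 1 and 0 counts, those of dKO 7, 21 and 18, and those of rescue 3, 2 and 2, a dKO to WT ratio of 41.2 (exact 95% interval 7.04 to 1664). Skap1 reached the filter level in dKO alone, so its rise adds no support.

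**Figure D4:**
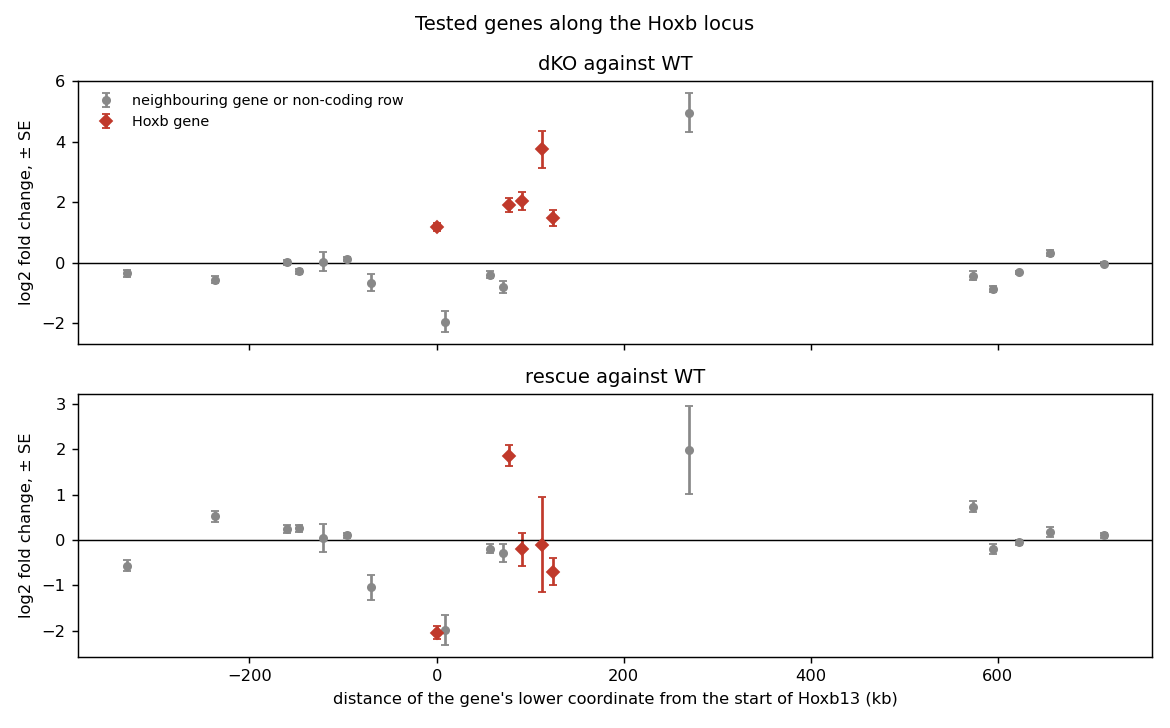
Log2 fold change (± 1 SE) of tested genes against the distance of their lower coordinate from the start of Hoxb13, for dKO against WT (upper) and rescue against WT (lower). In dKO the 5 Hoxb genes and Skap1 stand above their neighbours, and in rescue Hoxb9 lies above 0 while Hoxb13 and Gm11538 lie near -2. Skap1 and Hoxb3 passed the filter through dKO alone.

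The partners and regulators of Hox proteins were read from lists. TALE proteins (Pbx, Meis and Pknox) bind DNA together with Hox proteins. Of 9 tested, 4 rose, 2 fell and 3 did not pass in dKO against WT (median log2 fold change 0.18), and 3 rose, 5 fell and 1 did not pass in rescue against dKO. Over all tested genes 33.7% rose and 31.0% fell in the first comparison, and 32.1% rose and 38.2% fell in the second. By abundance, Pknox1 went from 52.7 ± 2.87 to 61.9 ± 5.35 CPM (SD, n = 3 libraries) and fell to 40.1 ± 1.76 in rescue. Pbx2 was at 51.3 ± 1.24, 43.4 ± 2.36 and 50.2 ± 1.26 CPM in WT, dKO and rescue. Pknox2 was at 34.7 ± 2.48, 39.1 ± 3.11 and 45.2 ± 0.308 CPM, higher in rescue than in dKO and in WT and not called between dKO and WT. Meis2 fell in each step, from 35.1 ± 2.10 to 20.2 ± 3.54 and 10.2 ± 0.904 CPM. Meis1, named after its values were seen, gave 1.03, 0.979 and 0.773 CPM in the WT libraries, 7.98, 7.29 and 6.31 CPM in the dKO libraries and 0.771, 0.934 and 0.346 CPM in the rescue libraries.

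Of 14 genes known to act upstream of Hox genes, 11 were tested, and 4 rose, 4 fell and 3 did not pass in dKO against WT (median 0.06). Over all tested genes 33.7% rose and 31.0% fell. In rescue against WT 7 rose and 0 fell, against 26.8% and 27.3% of all tested genes. The H3K4 methyltransferase Kmt2b was at 172 ± 12.7, 116 ± 16.1 and 176 ± 5.87 CPM in WT, dKO and rescue (SD, n = 3 libraries), and its partner menin, Men1, at 70.9 ± 1.86, 73.8 ± 3.63 and 106 ± 2.99. The retinoic acid receptor Rara fell from 64.1 ± 4.01 to 32.4 ± 1.66 CPM in dKO and was at 115 ± 5.76 in rescue. Kmt2a, a relative of Kmt2b, was at 48.8 ± 5.13, 50.1 ± 10.4 and 62.5 ± 6.76 CPM, called only as higher in rescue than in WT. Rarb and Cyp26a1, textbook targets of retinoic acid named after their values were seen, had 2 and 1 counts over WT, 45 and 46 over dKO, and 8 and 0 over rescue. Both reached the filter level in dKO alone, so their rise adds no support. The Cdx genes, activators of posterior Hox genes, were also named after their values were seen. Cdx2 gave 0.275, 0.186 and 0.258 CPM in the WT libraries, 1.05, 1.07 and 1.60 CPM in the dKO libraries and 1.03, 1.17 and 1.64 CPM in the rescue libraries, so that rescue overlapped dKO and not WT. Cdx1 was at 23.9 ± 2.71, 35.9 ± 8.92 and 56.3 ± 5.94 CPM (SD, n = 3 libraries). Cdx4 went the other way in rescue. It did not pass the filter and had 3 counts over WT, 14 over dKO and 3 over rescue.

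Against the other clusters, the Hoxb genes were the least often measurable. Tested were 5 of 10 Hoxb, 10 of 11 Hoxa, 9 of 9 Hoxc and 6 of 9 Hoxd genes. In dKO against WT 9 Hoxa, 8 Hoxc and 6 Hoxd genes rose and 0 fell, with median log2 fold changes of 2.85, 3.47 and 3.28, beside 1.92 for Hoxb. In rescue against WT 5 Hoxa, 3 Hoxc and 4 Hoxd genes rose, and 1 Hoxc gene fell. The summed level of all Hoxb genes was 12.4 to 14.5 CPM in WT, 33.3 to 37.8 in dKO and 10.3 to 10.5 in rescue. Hoxb13 made up most of this sum in WT and dKO, at means of 8.95 and 20.5 CPM, and Hoxb9 in rescue, at 6.53. A rescue sum near that of WT thus does not show that the single genes were near WT. For Hoxa the sums over WT, dKO and rescue were 5.09 to 6.15, 40.4 to 45.7 and 11.6 to 12.9 CPM. For Hoxc they were 25.2 to 28.6, 49.4 to 57.9 and 26.5 to 28.5, and for Hoxd 2.19 to 2.41, 17.3 to 23.1 and 6.86 to 8.17. No test of the difference between clusters was made.

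The summed levels of the fibroblast and endoderm marker lists were highest in dKO, as were most Hoxb genes, and those of the neural and posterior mesoderm lists were not highest in dKO alone. The marker genes named here were chosen after their values were seen. The fibroblast list summed to 2.84 to 4.13 CPM in WT, 34.0 to 35.6 in dKO and 5.13 to 5.83 in rescue. Thy1 carried most of the dKO sum, at 1.82, 29.9 and 1.64 CPM on average in WT, dKO and rescue. All 4 tested of the list's 8 genes rose in dKO against WT, and Twist1 was at 0.534, 1.61 and 2.02 CPM, not called between rescue and dKO, while over the 3 dKO libraries Col3a1 and Lum had 0 counts, Dcn 1 and Postn 4. The endoderm list summed to 5.23 to 6.43, 41.2 to 45.2 and 5.09 to 5.66 CPM, with 4 of 6 genes tested and 4 higher in dKO, Gata4 at a mean of 4.15, 22.8 and 3.22 CPM in WT, dKO and rescue, and Afp at a mean of 0.162 CPM in dKO. In rescue against dKO 3 of its tested genes fell and Sox17 was not called, at means of 0.194, 0.884 and 1.01 CPM in WT, dKO and rescue. In rescue against WT Sox17 was higher, 1 gene was lower and 2 were not called. The neural and spinal cord list summed to 73.7 to 83.0, 191 to 224.6 and 200 to 206 CPM, with 4 of 8 genes tested, 2 higher and 1 lower in dKO. Its rescue sums lay within the dKO range, but its genes did not move together. In rescue against dKO 1 tested gene rose, 1 fell and 2 did not pass. Nes fell, at means of 17.7, 102 and 22.6 CPM in WT, dKO and rescue, and Tubb3 rose, at 31.1, 19.9 and 93.5. The posterior mesoderm list summed to 1.44 to 1.79, 2.05 to 2.27 and 4.90 to 5.32 CPM, with 3 of 7 tested, 2 higher and 1 lower in dKO, and was highest in rescue. T carried most of the rescue sum, at means of 1.19, 0.501 and 3.85 CPM in WT, dKO and rescue. In rescue against dKO 2 tested genes rose and Foxc2 fell, at means of 0.251, 0.891 and 0.281 CPM. Foxc2 reached the filter level in dKO alone and Evx1 in rescue alone, so calls against those groups add no support. Over all tested genes 33.7% rose and 31.0% fell in dKO against WT. In bulk RNA fewer cells of a type and less RNA per cell cannot be told apart, and the part of other cell types in the Hoxb levels was not tested.

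The 5 genes outside the Hox clusters whose log2 CPM over the 9 libraries was most like the mean of the tested members were Arhgap9, Pygl, Dgcr8, Efnb3 and Slc7a8, with Pearson r of 0.996 to 0.997. All 5 were higher in dKO than in WT and in rescue, and missed the threshold between rescue and WT. They were picked for likeness to a mean that is high in dKO, so this pattern follows from the choice. Pygl, for example, was at 1.97 ± 0.169, 22.3 ± 1.44 and 1.56 ± 0.107 CPM in WT, dKO and rescue (SD, n = 3 libraries). With the same mean, Hoxb3 and Hoxb7 had r = 0.974, Hoxb4 0.931, Hoxb13 0.803 and Hoxb9 0.416. Each member is itself part of that mean, which raises its r. The 9 libraries form 3 groups, so these values describe group differences and are given without a p.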

How the data were processed

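RNA of 9 libraries was read as whole-number counts per gene symbol, deposited by the authors without normalization. Per the submitters' processing notes, Trimmomatic, STAR 2.4.0 and HTSeq were used on mm10, and per the labels' protocols the TruSeq v2 kit, which does not mark strand, was used on polyA RNA. Neither counting mode nor annotation is stated in those sources, so overlapping and antisense genes cannot be told apart. The other values deposited by the authors are Suz12 peak coordinates from 1 sample, with no score; the peak caller is not given there. The remaining 61 ChIP samples were not analysed here, and 2 of them carry titles and antibody labels that disagree.

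Counts were fitted with edgeR 4.0.16 in R 4.3.3: TMM, filterByExpr by group (minimum count 10), robust glmQLFit, then glmQLFTest, with the 9 libraries in 1 model (6 residual degrees of freedom), adjusted by Benjamini-Hochberg over 14145 genes. CPM uses total counts times the TMM factor. DESeq2 1.42.0 served as an alternative. The script was tested on simulated data. Count ratios carry exact 95% intervals, and they and the limit of 3 counts cover counting error only. Genes were placed by RefSeq tables of GRCm38.p6, which placed 22859 of 24222 by symbol, all 10 members among them, and 1205 by synonym. The members and gene lists were chosen with earlier results of these data known. All 10 members are named, and from each list up to 4 genes of the highest mean CPM; others are said to be chosen later. Planned protein comparisons were not made.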

Additional observations from a re-analysis of the deposited data

How the results depend on the processing

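The alternatives were DESeq2 size factors or total counts in place of TMM, DESeq2's Wald test, no filter or a mean of at least 1 CPM, only the compared groups in the fit, no robust estimation, a replicate block, and leaving out each library in turn. In dKO against WT 5 members rose in each leave-one-out fit, 7 with no filter (Hoxb2 and Hoxb8 added) and 4 with a mean of at least 1 CPM, where Hoxb3 was not tested. Of all genes, 4478 of 14414 (without WT replicate 2) to 5074 of 14320 (without dKO replicate 3) rose in the leave-one-out fits. With no filter 5239 of 18729 rose, and 4178 of 12627 with a mean of at least 1 CPM. In rescue against dKO 4 fell in each leave-one-out fit, 6 with no filter and 3 with a mean of at least 1 CPM. Among all genes 5017 of 14288 (without dKO replicate 2) to 5768 of 14320 (without dKO replicate 3) fell in the leave-one-out fits. With no filter 5847 of 18729 fell, and 4755 of 12627 with a mean of at least 1 CPM. In rescue against WT 1 member, Hoxb9, was higher in every fit, with a log2 fold change of 1.70 to 1.97, and 1 was lower, except that Hoxb4 made it 2 when only the 2 groups were fitted and 1 to 2 over the leave-one-out fits. Over all these fits 3159 to 4321 of the tested genes were higher in rescue than in WT and 3298 to 4389 lower. Of the members' fold changes none lost a call or reversed one, and 4, all of Hoxb4, gained one. With replicate numbers as a block, 5 members rose in dKO, 4 fell in rescue against dKO, and 1 was higher and 1 lower in rescue against WT, and no call changed. Of 14145 genes in that fit, 4750 rose in dKO and 5391 fell in rescue against dKO. In rescue against WT 3751 were higher and 3861 lower. Replicate numbers only name libraries: same-numbered libraries correlated at -0.11 to 0.20 in their deviations from group means. Members with a Suz12 peak stayed at 9 with each other window, overlap or width limit. The fold changes of Hoxb3 moved most when 1 library was left out, with no change of call between dKO and either other group. Hoxb1, Hoxb5 and Hoxb6 gave too few counts to resolve any comparison, and the cause was not tested.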
